A study of Mus musculus with 25 samples.

Results

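Mammary organoids of Brca1/P53-deficient mice taken 1 day after weaning were set against those of nulliparous mice, across all genes of the deposited table. The sample labels put 10 of the 25 RNA-seq libraries of the series in these groups, 5 in each. The 1-day libraries came from untreated multiparous females at the first day of involution, the regression of the milk-secreting gland once suckling stops. The nulliparous libraries came from untreated females that had not been pregnant, matched in age to mice examined 60 days into involution. Both groups carried loxP-flanked Brca1 and P53 alleles and a Cre recombinase under the cytokeratin 14 promoter, so both tumor suppressor genes are lost in only some of the gland's cells and neither group had an intact genotype. Organoids here are the epithelium-enriched pellets left after collagenase and trypsin digestion, frozen without a described period of culture. The nulliparous mice belonged to the 60-day experiment. Lactation history, age and experiment therefore cannot be told apart in any value given here.

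During pregnancy and lactation, prolactin acting through its receptor and the transcription factor STAT5 drives alveolar luminal cells to make caseins, whey proteins, lactose and milk fat. When suckling stops, milk stasis and leukemia inhibitory factor activate STAT3, acute phase proteins are made, lysosomal cathepsins leak and secretory cells begin to die, while the earliest stage can still be reversed by renewed suckling. In the nulliparous gland, estrogen and progesterone act on hormone-sensing luminal cells, which send paracrine signals such as amphiregulin to neighboring progenitor and basal cells and to the stroma.

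The casein and whey acidic protein promoters are the classical examples of prolactin-responsive promoters, so those of 3 transcripts with high levels at 1 day were read from RefSeq (GRCm38.p6), each from 250 bases before the transcription start to 50 bases from the start on, 5′ to 3′ on the gene's strand. Capitals mark the letters TTCNNNGAA, the palindromic STAT5 consensus, which reads the same on both strands.
Csn1s1, chr5:87665958-87666257, plus strand: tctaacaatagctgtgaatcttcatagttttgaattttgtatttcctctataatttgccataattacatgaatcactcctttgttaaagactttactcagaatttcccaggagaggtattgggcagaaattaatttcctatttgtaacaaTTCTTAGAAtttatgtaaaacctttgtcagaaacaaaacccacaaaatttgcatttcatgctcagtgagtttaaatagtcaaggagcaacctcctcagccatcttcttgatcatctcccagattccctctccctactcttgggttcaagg
Csn2, chr5:87699376-87699675, minus strand: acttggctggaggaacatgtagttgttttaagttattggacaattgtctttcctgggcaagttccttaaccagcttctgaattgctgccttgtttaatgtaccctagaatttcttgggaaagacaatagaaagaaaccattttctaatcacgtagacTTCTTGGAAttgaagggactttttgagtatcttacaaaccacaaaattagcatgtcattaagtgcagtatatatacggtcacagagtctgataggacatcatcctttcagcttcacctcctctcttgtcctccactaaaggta
Wap, chr11:6638600-6638899, minus strand: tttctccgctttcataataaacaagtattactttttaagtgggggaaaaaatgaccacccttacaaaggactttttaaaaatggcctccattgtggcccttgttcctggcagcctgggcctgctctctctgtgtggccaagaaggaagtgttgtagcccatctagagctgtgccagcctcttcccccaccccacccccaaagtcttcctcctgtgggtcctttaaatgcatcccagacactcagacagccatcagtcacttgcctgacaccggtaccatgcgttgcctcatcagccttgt
The motif began 100 bases before the start of Csn1s1 (alpha-S1 casein) and 93 bases before that of Csn2 (beta-casein), and its letters were not in the window of Wap (whey acidic protein). Of 11 milk protein genes searched, 8 had a window in the table and 4 of these held the motif (Csn1s1, Csn1s2a, Csn2 and Glycam1), against 2726 of the 32851 windows searched as background, which left out those of 1 chromosome (8.30%). The match of Glycam1 began 145 bases before the start, and that of Csn1s2a lay after the start. A match is a string of letters and not a measured binding site.

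The libraries differed in more than their group. The processed pseudogene Gm12895 took 41.3% to 56.8% of all TPM (the length-corrected share of a library's transcripts) in 1-day libraries and 0.0016% to 3.54% in nulliparous libraries, and the share held by milk protein genes was 0.221% to 36.8% and 0.133% to 0.613%. Each library was therefore divided by a median-of-ratios factor, 0.319 to 1.12 at 1 day and 1.32 to 2.41 in nulliparous libraries, and levels below are such scaled TPM, in the order of libraries 1 to 5. Library 3 of the 1-day group stood apart. Epcam, an adhesion protein that defines epithelium, was at 388, 43.1, 1.73, 291 and 278 scaled TPM in the 1-day libraries, against 21.8, 5.05, 12.2, 56.4 and 44.5 in nulliparous libraries, and Krt8, the luminal keratin, was at 0.527 in 1-day library 3, against 8.37 or more in every other library. The label of an epithelium-enriched preparation thus had little support from defining markers in that library, which correlated across genes at r = 0.684 to 0.936 with the other 1-day libraries and at 0.932 at most with a nulliparous library (library 2), a description only. Trac, the T cell receptor alpha chain, was at 0.953, 196, 205, 0.362 and 0.532 scaled TPM at 1 day, against 42.4, 157, 115, 1.39 and 17.9 in nulliparous libraries, so libraries 2 and 3 of both groups were rich in lymphocyte transcripts. Results are given with all libraries and, where it matters, without 1-day library 3.

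Between the groups, 429 genes rose and 523 fell at 1 day among 16869 tested (2.54% and 3.1%, or 5.64% in either direction), by limma on log2(scaled TPM + 1) with a Benjamini-Hochberg adjusted p of 0.05 or less. A further criterion, groups of 5 that did not overlap, was met by 675 genes at higher (4%) and 1110 genes at lower levels (6.58%). The largest changes named below were picked among such genes, so their lack of overlap followed from the choice. Fold changes below are log2, 1 day over nulliparous, with the standard error of the fit. The added pseudocount of 1 shrinks the change of weakly expressed genes. The median over all tested genes was -0.17. Without 1-day library 3 the counts were 949 and 1174 (5.78% and 7.15% of 16419 tested). These shares, with and without that library, are the background for every list count below. The counts were 144 and 74 without 1-day library 1, 126 and 60 without library 4, and 140 and 72 without library 5. Leaving out nulliparous library 3, 4 or 5 gave 282 and 222, 194 and 106, or 230 and 124, and leaving out 1-day library 2 gave 344 and 320. Of the 952 calls, 933 were called again without 1-day library 3, against 216, 185 and 210 without 1-day library 1, 4 or 5. The split also depended on scaling: 45.1% of the calls were higher with these factors, 58.7% after quantile normalization, 1.82% with TPM rescaled without Gm12895 and mitochondrial genes, and 0.483% with TPM as deposited, where the median of all genes was -1.74. A small positive fold change below is thus a rise relative to the median gene.

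Milk proteins were far higher at 1 day in 4 of the 5 libraries. All 5 caseins and 12 of 15 genes listed as whey and other secreted milk proteins had positive fold changes, with medians of 7.84 and 3.37. The second list, called whey proteins below, also holds Tph1, an enzyme rather than a milk protein, which was its 1 fall. Only 1 casein and 2 whey proteins rose by the test with all libraries included. Wap (chr11:6635482-6638637), the major whey protein of the mouse, was at 316380, 42604, 43.7, 363300 and 350580 scaled TPM in 1-day libraries, against 1.17, 0.291, 0.689, 3.78 and 10.3 in nulliparous libraries. Its groups did not overlap, and even the low 1-day library 3 stood above every nulliparous library. Wap rose by 13.61 ± 2.23 (adjusted p = 0.0114), and by 16.02 without that library. Csn1s2b (chr5:87808082-87824426), an alpha-S2-like casein, was at 46536, 4585, 5.45, 61333 and 69418 scaled TPM at 1 day and 1.25, 1.7, 0.665, 0.986 and 0.721 in nulliparous libraries, and rose by 11.45 ± 2.21 (adjusted p = 0.0203). Its nulliparous levels were under those of every other casein.

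The other caseins had a level in nulliparous glands. Csn1s1 was at 121410, 16722, 22.4, 143500 and 153510 scaled TPM at 1 day and 366, 75.7, 32.1, 247 and 606 in nulliparous libraries, a difference of 6.56 ± 2.23 (adjusted p = 0.0959). Csn2 was at 119180, 20018, 18.9, 169910 and 203310 and 59.3, 33.5, 25.4, 175 and 265, a difference of 7.84 ± 2.27 (adjusted p = 0.0656). In both, 4 of the 1-day libraries lay far above the nulliparous range and library 3 below it. Csn1s2a and Csn3 (kappa-casein, which holds the micelle together) differed by 7.91 and 6.93 (adjusted p = 0.0662 and 0.0682). Without 1-day library 3 all 5 caseins rose, with a median of 10.28 (adjusted p = 6.22e-04 for Csn2 and 0.00163 for Csn1s1), and so did 12 of 15 whey proteins, with a median of 5.24.

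**Figure D1:**
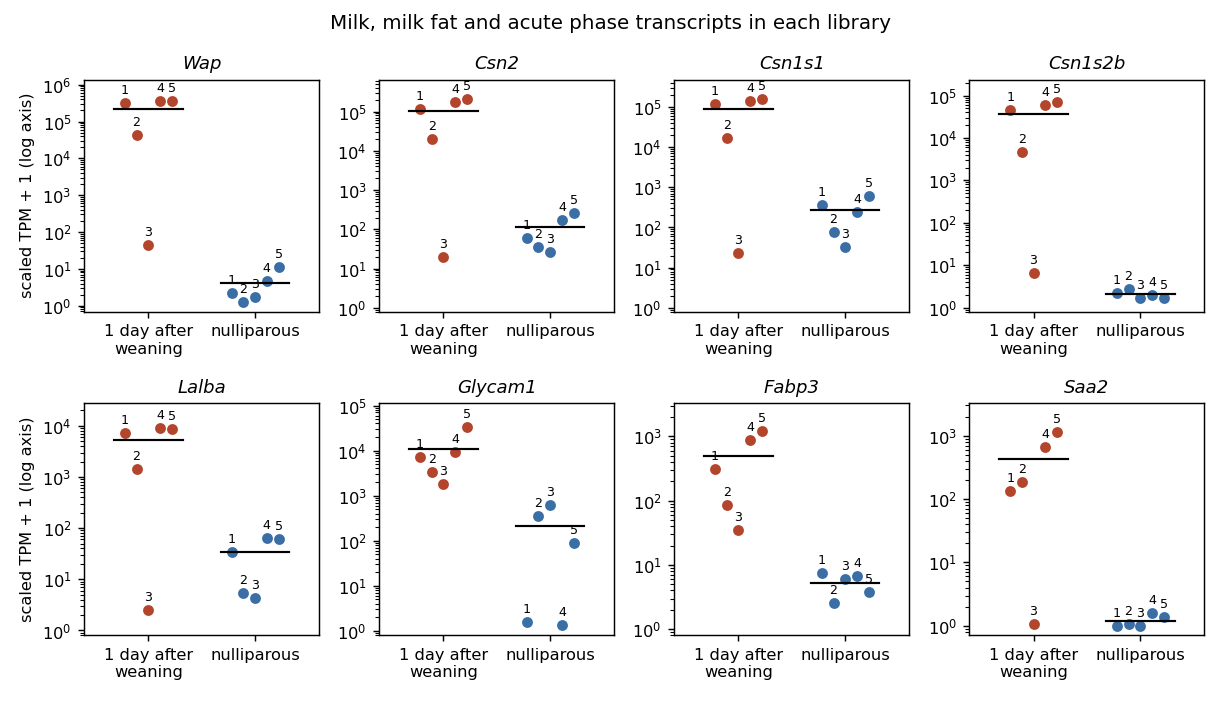
Scaled TPM + 1 on a log axis in each library (points, numbered by replicate) of the 1-day group (left) and the nulliparous group (right) for 8 milk, milk fat and acute phase transcripts, with the mean as a black bar. In Wap all 5 points at 1 day lie above the nulliparous ones, with library 3 at 43.7, and in Csn2, Csn1s1, Lalba and Saa2 library 3 falls to the nulliparous level or below it.

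Among the whey proteins, Glycam1, a mucin-like milk component that high endothelial venules of lymph nodes also make, was at 7259, 3300, 1820, 9329 and 33489 scaled TPM in 1-day libraries, against 0.556, 343, 606, 0.304 and 89.4 in nulliparous libraries, and rose by 7.67 ± 1.77 (adjusted p = 0.0359). Its lowest 1-day value, in library 3, was still above every nulliparous value, and its highest nulliparous values were in libraries 2 and 3, which were also those richest in T cell transcripts; the part of lymph node tissue in this result was not tested. Lalba (alpha-lactalbumin, the regulatory subunit of lactose synthase) was at 7160, 1418, 1.49, 9067 and 8826 at 1 day and 32.6, 4.49, 3.38, 63.8 and 61.5 in nulliparous libraries. Its difference of 5.84 ± 2.10 did not pass the test (adjusted p = 0.11), but did without 1-day library 3 (8.04, adjusted p = 0.00179). The following were chosen after their values were seen: Wfdc18 (a whey protein of the WAP family), Ltf (lactoferrin, an iron-binding antimicrobial protein), Cel (bile salt-stimulated lipase) and Trf (transferrin). They differed by 5.93, 4.56, 6.16 and 3.37 with all libraries, none past the threshold, and by 8.31, 6.50, 8.12 and 5.24 without 1-day library 3, all past it. Of the 31-base words of Trf, 63.8% also occur in other genes, so its reads could have been divided. Tph1, which makes serotonin, the local brake on milk secretion, moved the other way: it was at 4.44, 1.78, 1.41, 4.58 and 5.09 scaled TPM at 1 day and 19.8, 5.3, 64.1, 58.6 and 11.6 in nulliparous libraries, and fell by 2.47 ± 0.63 (adjusted p = 0.0482). It missed the threshold without 1-day library 3 (adjusted p = 0.0502).

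Most genes of milk fat had positive fold changes, smaller than those of the milk proteins. Of 20 genes of milk fat droplets and triglyceride synthesis, 16 had positive fold changes and 1 rose (median 1.17), and 10 rose without 1-day library 3 (median 1.55). Fabp3 (chr4:130308595-130315463), the fatty acid carrier of heart and lactating gland, was at 306, 84.5, 34.4, 868 and 1197 scaled TPM at 1 day and 6.39, 1.59, 4.99, 5.66 and 2.78 in nulliparous libraries, with no overlap. It rose by 5.66 ± 0.88 (adjusted p = 0.00925), with 37.3% of its 31-base words shared with other genes. Cidea, Xdh and Btn1a1, which coat and release the milk fat globule and were chosen after their values were seen, differed by 6.18, 2.05 and 2.87 (adjusted p = 0.0502, 0.212 and 0.281). Without 1-day library 3 they rose by 7.80, 3.03 and 4.52. Cidea shows the contrast most plainly: it was at 512, 36.3, 0.141, 792 and 825 at 1 day and 0.114, 0, 1.39, 0.618 and 0.642 in nulliparous libraries. None of 18 genes of fatty acid synthesis was called (median 0.91), and 7 rose without that library (median 1.32). Of 22 cholesterol genes 1 rose (median 0.37), and 3 did without that library. Pmvk (phosphomevalonate kinase) rose by 1.25 ± 0.32 (adjusted p = 0.0489) after scaling, but its difference was -0.453 with TPM as deposited. Lactose synthesis had no call among 11 genes (median 0.46), and 2 without library 3.

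With all libraries, transporters that load milk with calcium and zinc gave calls near the share over all genes (2.54% and 3.1%). Of 23 genes of secretory ion transport, 1 rose and 1 fell (median 0.60). Without 1-day library 3, 7 rose and 2 fell (median 1.05, background 5.78% higher and 7.15% lower). Orai1, the store-operated calcium channel of the lactating gland, was at 72.2, 33.1, 17.5, 73.4 and 88 scaled TPM at 1 day and 12, 13.2, 11.8, 10.8 and 16.1 in nulliparous libraries without overlap, and rose by 1.87 ± 0.40 (adjusted p = 0.0289), against a difference of -0.0365 with TPM as deposited. Slc39a8, a zinc and manganese importer, and Atp2c2, a calcium pump of the Golgi, were chosen after their values were seen; they differed by 5.21 and 4.02 (adjusted p = 0.0572 and 0.0921). Slc39a8 was at 1090, 71.3, 2.1, 1054 and 695 at 1 day, against 6.61, 2.15, 3.28, 3.97 and 4.16 in nulliparous libraries. Aqp5, a water channel of ductal cells, was at 0.949, 0.339, 0.0741, 0.607 and 1.18 at 1 day and 10.6, 1.82, 6.69, 64.1 and 32.3 in nulliparous libraries, and fell by 3.15 ± 0.72 (adjusted p = 0.0358). Before scaling, Aqp5 was below 1 TPM in every 1-day library and met the filter through nulliparous libraries alone. Nucb2, the calcium-binding precursor of nesfatin, was at 415, 75.6, 10.4, 358 and 443 and 9.07, 4.87, 5.73, 5.56 and 5.36, and rose by 4.35 ± 0.90 (adjusted p = 0.0263), with every 1-day library above every nulliparous one. None of 15 amino acid transporters was called (median -0.22).

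The prolactin pathway itself was not among the calls. None of 15 genes of the receptor and STAT5 pathway passed (median -0.18, near that of all genes), and 1 did without 1-day library 3. Prlr, the prolactin receptor, was at 14.4, 7.33, 3.08, 19.3 and 35.2 scaled TPM at 1 day and 39.2, 9.8, 30.2, 215 and 53.2 in nulliparous libraries, overlapping ranges with a difference of -1.74 ± 0.78 (adjusted p = 0.18). Stat5a and Stat5b differed by 0.07 ± 0.38 and -0.43 ± 0.34 (adjusted p = 0.925 and 0.429). Both overlapped between the groups. Elf5, the alveolar transcription factor downstream of prolactin, chosen after its values were seen, was at 389.5, 98.8, 3.16, 462 and 503 and 24.9, 11.8, 14.5, 77.9 and 63.4, a difference of 2.10 ± 1.23 (adjusted p = 0.297) that passed without 1-day library 3 (3.33, adjusted p = 0.0159). Drd2, the pituitary dopamine receptor through which prolactin is restrained, was listed at 0 in all 10 libraries.

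Acute phase proteins were high in 4 of the 5 libraries at 1 day, and few genes of the STAT3 list passed the test. Of 27 genes of STAT3 and early involution, 19 had positive fold changes and 2 rose (median 1.18), and without 1-day library 3, 13 rose and 1 fell (median 1.64). Saa2 (chr7:46751790-46754313), an acute phase apolipoprotein, was at 132, 183, 0.0782, 653 and 1136 scaled TPM at 1 day, against 0, 0.0545, 0, 0.598 and 0.359 in nulliparous libraries. It rose by 6.60 ± 1.55 (adjusted p = 0.0382), although 1-day library 3 lay inside the nulliparous range and 44.5% of its 31-base words occur in 2 other genes. Saa1, Orm1 and Lcn2 (lipocalin 2, which binds bacterial siderophores), chosen after their values were seen, differed by 6.10, 5.24 and 2.98 (adjusted p = 0.0536, 0.0552 and 0.33), and rose by 7.83, 6.72 and 4.93 without that library. Of the 31-base words of Saa1 and Orm1, 46.8% and 27.5% also occur in other genes. Bcl3, an IkB-family cofactor induced by STAT3, was at 106, 46.4, 44.6, 79.1 and 139 at 1 day and 19.5, 25.3, 22.8, 40.7 and 29.3 in nulliparous libraries without overlap. It rose by 1.46 ± 0.34 (adjusted p = 0.036), though its difference was -0.471 with TPM as deposited. Stat3 itself was at 321, 169.9, 136, 336 and 332 and 193, 163, 195, 371 and 298, a difference of 0.057 ± 0.34 (adjusted p = 0.932); its transcript level says nothing of its phosphorylation.

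IgA and its carrier were higher in 4 of the 5 libraries at 1 day. Igha, the heavy chain of the IgA that passes into milk, was at 1049, 241, 11, 517 and 835 scaled TPM at 1 day and 8.88, 13, 35.6, 14 and 12.5 in nulliparous libraries. Pigr, the receptor that carries IgA across the epithelium, was at 355, 122, 0.368, 443 and 837 and 6.95, 0.473, 1.28, 12 and 8.65. Both were chosen after their values were seen. They differed by 4.06 and 4.53 (adjusted p = 0.051 and 0.0965) and rose by 5.17 and 6.12 without 1-day library 3. None of 14 genes of immunoglobulin secretion was called with all libraries (median 0.09), and 3 rose without library 3. Of 87 immunoglobulin variable segments tested, 5 rose (5.75%, against 2.54% of all genes) and none fell (median 1.40).

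Few cell death and lysosomal genes passed the test with all libraries, and the median fold changes of these lists were small. The 29 lysosomal genes summed to 1582 to 3875 scaled TPM at 1 day (median 3154), lowest in library 3. They summed to 1432 to 2062 in nulliparous libraries (median 1622). The median of 26 BCL2 family members and caspases was 0.13. Of 29 lysosomal genes 1 rose (median 0.17), and of 33 genes of the secretory pathway and unfolded protein response 2 rose (median 0.21). Ctsz, a lysosomal cathepsin, rose by 1.22 ± 0.25 (adjusted p = 0.0261; -0.719 as deposited), with 103, 56.2, 66.5, 123 and 105 at 1 day, against 25.7, 38.1, 42.8, 34.8 and 45.5 in nulliparous libraries. Dnajb11, a chaperone of the endoplasmic reticulum, rose by 0.89 ± 0.19 (adjusted p = 0.0288; -0.998 as deposited). Creb3l1, a membrane-bound transcription factor of secretory cells, was at 24, 6.83, 3.48, 24.7 and 31.3 and 1.92, 0.677, 1.72, 3.54 and 4.43 and rose by 2.22 ± 0.57 (adjusted p = 0.0491). Without 1-day library 3, 5 lysosomal genes rose and 1 fell, and 4 secretory genes rose (background 5.78% higher and 7.15% lower).

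**Figure D2:**
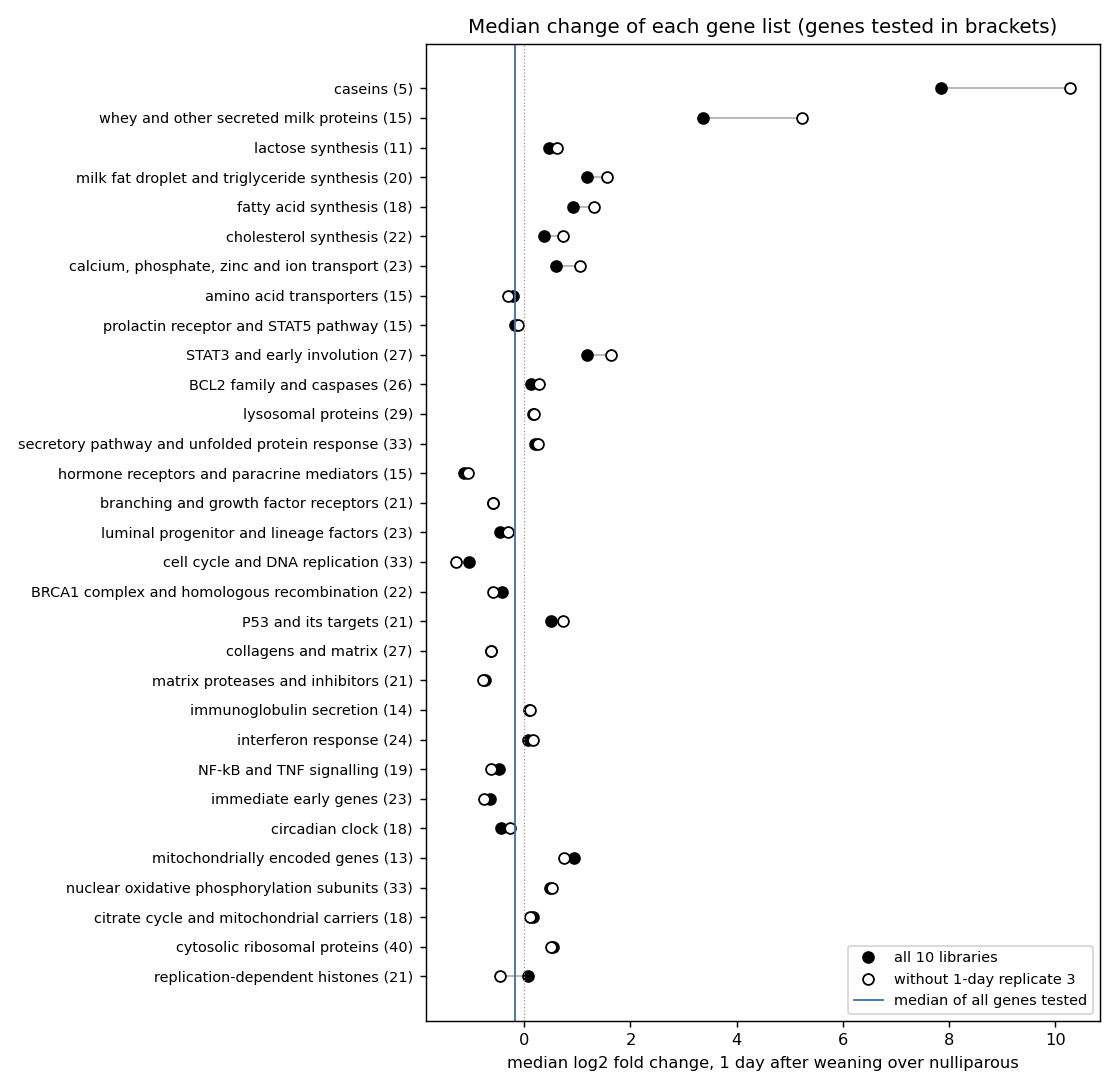
Median log2 fold change, 1 day over nulliparous, of the tested genes of 31 pathway lists (x axis; number of genes in brackets), with all 10 libraries (filled) and without 1-day library 3 (open), beside the median of all genes tested (blue line, -0.17). Caseins stand at 7.84 and 10.28 and whey proteins at 3.37 and 5.24, while hormone receptors with their mediators stand at -1.13 and -1.06.

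Scaling bears on every list. With the factors used, 24 of 46 lists had a positive median and 22 a negative one, as they did after quantile normalization. With TPM as deposited only 2 lists, the caseins and the whey proteins, kept a positive median, and with TPM rescaled without Gm12895 and mitochondrial genes 4 of 45 lists had one.

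Several hormone signaling genes fell at 1 day. Of 15 tested genes of hormone receptors and their paracrine mediators, 5 fell and none rose. The median was -1.13, against -0.17 for all genes, and the background was 3.1% lower. The count of lower genes was 5 again without 1-day library 3 (background 7.15%). Areg and Pgr were below 1 TPM in every 1-day library before scaling. They met the filter through nulliparous libraries alone and so could be called only as lower. Without the 4 libraries richest in T cell transcripts neither was tested. There 4 members were, of which 1 rose and none fell (median 0.79, background 11.6% higher and 10.4% lower). The filter still asked for 1 TPM in at least 5 libraries there. Genes below it in most of the remaining 1-day libraries were thus left out beforehand, and that count cannot show whether the list fell. Areg (chr5:91139599-91148432), amphiregulin, the EGF receptor ligand that carries the estrogen signal in ductal growth, was at 0.452, 0.099, 0.401, 0.128 and 0.126 scaled TPM at 1 day and 13.6, 6.18, 25.5, 186 and 21.2 in nulliparous libraries. No 1-day library reached 1 scaled TPM, and the groups did not overlap. Areg fell by 4.39 ± 0.70 (adjusted p = 0.00992). Pgr, the progesterone receptor, was at 1.23, 0.251, 0.0452, 0.466 and 0.623 at 1 day and 7.97, 2.21, 8.93, 37.2 and 9.28 in nulliparous libraries, and fell by 2.80 ± 0.54 (adjusted p = 0.0201). Prom1, a surface marker of hormone-sensing luminal cells, was at 1.37, 2.84, 3.48, 1.83 and 2.23 and 18.3, 5.07, 9.43, 27.4 and 13.4, and fell by 2.08 ± 0.39 (adjusted p = 0.019). In these 3 genes nulliparous library 4 was the highest and library 2 the lowest.

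Also lower, and chosen after their values were seen, were Rspo1, a Wnt agonist made downstream of these hormones, and Id4, a regulator of basal cells. They fell by 1.93 ± 0.44 and 1.78 ± 0.40 (adjusted p = 0.0347 and 0.0333). Both were also below 1 TPM in every 1-day library before scaling and met the filter through nulliparous libraries alone. Esr1, the estrogen receptor, did not share the pattern: it was at 14.7, 9.36, 7.86, 20.1 and 20 scaled TPM at 1 day and 18.2, 8.42, 8.91, 25.6 and 12.2 in nulliparous libraries, a difference of 0.0032 ± 0.36 (adjusted p = 0.997). Values of Pgr and Areg in these bulk pellets cannot separate fewer hormone-sensing cells from less RNA per cell, and that holds for every other gene here.

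Some growth factor receptors fell as well. Of 21 genes of branching and growth factor receptors, 3 fell, none rose and 6 had positive fold changes (median -0.59, background 3.1% lower). Without 1-day library 3, 3 fell and 1 rose (background 7.15% lower and 5.78% higher). Fgfr2 (chr7:130162451-133123350), the FGF receptor that end buds need, was at 9.43, 8.89, 6.02, 9.52 and 9.58 scaled TPM at 1 day, a narrow range, and 34.6, 13, 28.4, 180.1 and 65.7 in nulliparous libraries. It fell by 2.22 ± 0.56 (adjusted p = 0.0463). Fgfr1 was at 19.1, 19.8, 29.3, 19.7 and 21.2 and 76.6, 35.5, 59.9, 157 and 182, and fell by 1.95 ± 0.41 (adjusted p = 0.0265). Igf1r, the IGF-1 receptor, fell by 1.61 ± 0.28 (adjusted p = 0.0147), with 6.61, 10.6, 10.9, 6.31 and 5.96 at 1 day and 26.6, 15.7, 22.3, 42 and 30 in nulliparous libraries, again without overlap. Met, the HGF receptor, and its stromal ligand Hgf differed by 0.016 ± 0.61 and -0.99 ± 0.29 (adjusted p = 0.991 and 0.0658), and Erbb4 was too low to be tested. Before scaling, Hgf was below 1 TPM in every 1-day library and met the filter through nulliparous libraries alone.

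Luminal progenitor genes were divided: of 23 lineage factors, 9 had positive and 14 negative fold changes, from -3.13 to 3.49. Of these, 3 fell and none rose (median -0.46, background 3.1% lower). Without 1-day library 3, 4 fell and 3 rose (background 7.15% lower and 5.78% higher). Without the 4 libraries richest in T cell transcripts, 4 fell and 6 rose among 19 tested (background 10.4% lower and 11.6% higher). Kit (chr5:75574916-75656722), the stem cell factor receptor that marks luminal progenitors, was at 3.43, 7.06, 15.8, 5.34 and 8.14 scaled TPM at 1 day and 107, 22.9, 59.9, 93.4 and 122 in nulliparous libraries. It fell by 3.13 ± 0.48 (adjusted p = 0.0087), with all 1-day libraries under the nulliparous range. Notch1 was at 86.8, 89.5, 94.3, 53.6 and 59.7 and 251, 163, 134, 220.4 and 163, and fell by 1.27 ± 0.24 (adjusted p = 0.019). Notch3, which luminal progenitors and pericytes express, was at 11.7, 9.6, 10.9, 12.6 and 12.2 at 1 day and 25.9, 18.7, 22.3, 65.1 and 38.1 in nulliparous libraries, and fell by 1.36 ± 0.31 (adjusted p = 0.0336). Sox9, another progenitor factor, differed by 1.18 ± 1.05 (adjusted p = 0.5; -0.648 with TPM as deposited), with a wide range of 82.5, 11.5, 1.02, 61.4 and 44.9 at 1 day.

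**Figure D3:**
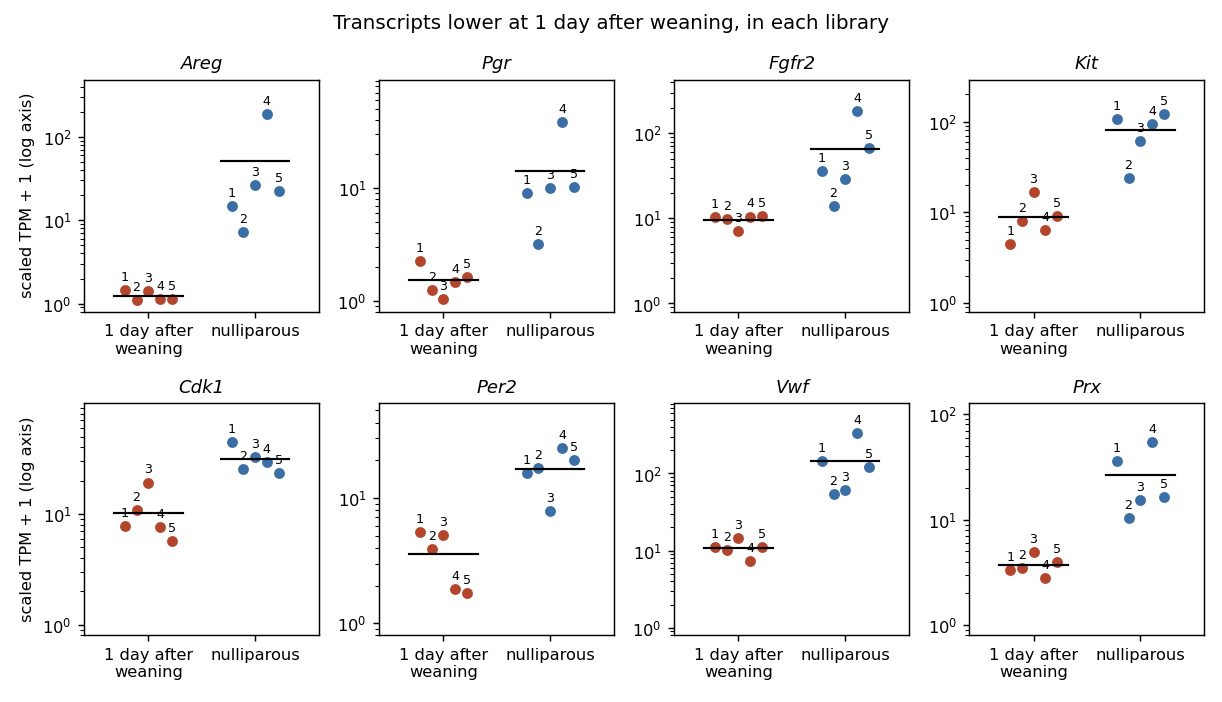
Scaled TPM + 1 on a log axis in each library (points, numbered by replicate) of the 1-day group (left) and the nulliparous group (right) for 8 transcripts that were lower at 1 day, with the mean as a black bar. None of these 8, chosen for display, overlaps between the groups. Areg reaches 0.452 scaled TPM at most at 1 day and is 6.18 at least in nulliparous libraries, and Kit reaches 15.8 and is 22.9 at least. The rule that named Areg and Vwf required groups without overlap, while Fosb, Egr1, Bgn and Il1r1, also called lower and not drawn, overlapped.

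Most proliferation genes had negative fold changes, few of them past the threshold. Of 33 genes of the cell cycle and DNA replication, 31 had negative fold changes, 4 fell and none rose (median -1.04, background 3.1% lower). Without 1-day library 3, 15 fell (median -1.28, background 7.15% lower). Cdk1, the mitotic kinase, was at 6.76, 9.97, 18.3, 6.56 and 4.7 scaled TPM at 1 day and 44, 24.7, 31.5, 28.8 and 22.4 in nulliparous libraries, and fell by 1.71 ± 0.33 (adjusted p = 0.0196). Mcm3, part of the replicative helicase, was at 3.82, 15.1, 19, 6.18 and 3.48 and 25.3, 32.5, 36.7, 26.5 and 44.3, and fell by 1.94 ± 0.43 (adjusted p = 0.0316). Ccnb1, cyclin B1, fell by 1.74 ± 0.44 (adjusted p = 0.0452), with 27.7% of its 31-base words shared with other genes, and Cdc20 was the remaining call. Within the 1-day group Cdk1, Mcm3 and Ccnb1 were highest in libraries 2 and 3, the lymphocyte-rich ones; the part of lymphocytes was not tested. Mki67, the antigen stained in Ki-67 counts, was at 2.38, 7.62, 12.1, 1.28 and 3.09 at 1 day and 5.35, 9.8, 21.4, 6.54 and 14.8 in nulliparous libraries, overlapping ranges with a difference of -1.14 ± 0.52 (adjusted p = 0.189).

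A few homologous recombination genes, which cycling cells express, fell too. Of 22 genes of the BRCA1 complex and homologous recombination, 3 fell and none rose (median -0.43, background 3.1% lower). Bard1, the obligate partner of BRCA1, was at 0.625, 1.53, 2.53, 0.739 and 0.563 scaled TPM at 1 day and 4.01, 2.92, 3.4, 2.73 and 3.36 in nulliparous libraries, and fell by 1.03 ± 0.25 (adjusted p = 0.0408). Xrcc2, which acts in the same repair pathway, was at 2.32, 4.84, 5.07, 2.62 and 2.38 at 1 day and 8.26, 8.69, 7.89, 9.74 and 8.87 in nulliparous libraries, and fell by 1.18 ± 0.24 (adjusted p = 0.0242). Brca1, a deleted gene of the model in both groups, was at 1.34, 3.32, 2.38, 0.785 and 1.33 and 4.85, 4.28, 5.75, 2.37 and 2.98, a difference of -0.86 ± 0.29 that missed the threshold (adjusted p = 0.0959). Transcripts of Trp53, the other deleted gene, were at 18, 45.7, 45.1, 15.5 and 10.5 at 1 day and 15.3, 33.6, 32.1, 16.9 and 17.6 in nulliparous libraries, with the high values in libraries 2 and 3 of both groups and a difference of 0.065 ± 0.43 (adjusted p = 0.939). Among 21 genes of P53 and its targets none was called (median 0.50), and 1 rose and 1 fell without 1-day library 3.

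The clock genes, which cycle over the day in most tissues, were divided. Of 18 such genes, 5 fell and 1 rose, against a background of 3.1% lower and 2.54% higher, and 7 had positive fold changes. The median was -0.45. It was -0.057 among the 15 genes tested without the 4 libraries richest in T cell transcripts, where the filter left out Per2. Without 1-day library 3, 6 fell and 1 rose (background 7.15% lower and 5.78% higher). Per3 was at 4.68, 5.22, 7.63, 2.75 and 3.57 scaled TPM at 1 day and 18.5, 14.3, 15.9, 27.4 and 16.5 in nulliparous libraries, and fell by 1.78 ± 0.27 (adjusted p = 0.00835). Per2 was at 4.32, 2.94, 4.03, 0.868 and 0.758 and 14.7, 16.3, 6.87, 23.9 and 19.1, and fell by 2.32 ± 0.42 (adjusted p = 0.0167). These repressors of the clock did not overlap between the groups. Cry2 fell by 1.28 ± 0.23 (adjusted p = 0.0172), and Tef and Nr1d2, chosen after their values were seen, by 1.72 ± 0.41 and 0.84 ± 0.20. Npas2, an activator that pairs with BMAL1, chosen in the same way, rose by 2.96 ± 0.64 (adjusted p = 0.0293), with 30.9, 9.95, 2.57, 41.7 and 37.3 at 1 day and 2.64, 0.687, 1.07, 0.972 and 1.8 in nulliparous libraries. The part of the hour of collection was not tested.

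Of 23 immediate early genes, 3 fell and none rose (median -0.64, background 3.1% lower). Nr4a1, an orphan nuclear receptor, was at 21.4, 48.5, 55.4, 23.9 and 16.5 scaled TPM at 1 day and 262, 75.9, 63.5, 248 and 165 in nulliparous libraries, and fell by 2.19 ± 0.48 (adjusted p = 0.0314). Fosb fell by 2.31 ± 0.54 (adjusted p = 0.0385) and Egr1 by 1.59 ± 0.40 (adjusted p = 0.0455). In all 3 genes nulliparous libraries 1 and 4 were the highest. Among 19 genes of NF-kB and TNF signaling 1 fell, Il1r1, the interleukin 1 receptor, by 1.48 ± 0.37 (adjusted p = 0.0461), and among 24 interferon-responsive genes none was called (medians -0.49 and 0.07).

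Nerve markers were lower in the 1-day pellets, with few calls among vessel, blood and stromal markers. Of 9 Schwann cell and nerve markers 4 fell and none rose (median -2.19, background 3.1% lower). Without 1-day library 3, 7 fell (background 7.15% lower). Prx (periaxin), a protein of myelinating Schwann cells, was at 2.36, 2.48, 3.92, 1.82 and 3 scaled TPM at 1 day and 34.9, 9.44, 14.3, 53.5 and 15.5 in nulliparous libraries, without overlap, and fell by 2.59 ± 0.43 (adjusted p = 0.0115). Vwf (chr6:125546774-125686679), von Willebrand factor of endothelium, was at 10.1, 9.27, 13.7, 6.38 and 10.2 at 1 day and 143, 53.8, 60.2, 333 and 120.2 in nulliparous libraries, and fell by 3.42 ± 0.45 (adjusted p = 0.00354). It was the 1 call among 14 endothelial markers (median -0.60). Hba-a2, an alpha-globin of red cells, was at 9.38, 3.58, 27.4, 30.1 and 9.58 and 11112, 255, 628, 11179 and 644, and fell by 6.95 ± 1.10 (adjusted p = 0.00949); with 92.6% of its 31-base words shared with its near copies it is uncertain on its own. Of 5 red cell genes tested, Hba-a2 was the 1 call. Hbb-bs, a beta-globin, was at 714, 368, 839.5, 1320 and 887 at 1 day and 19149, 1772, 2204, 15040 and 1741 in nulliparous libraries, a difference of -2.58 ± 0.79 (adjusted p = 0.0764). Of the 31-base words of Hbb-bs, 54.4% are shared with 1 other gene.

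A few fibroblast and matrix genes fell. Of 12 fibroblast markers 2 fell (median -0.87), of 27 collagens and matrix genes 3 fell (median -0.63), and of 21 matrix proteases and inhibitors 2 fell (median -0.74), with no rise in any of them. The background was 3.1% lower. Pdgfra, a fibroblast receptor, was at 12.1, 9.05, 18, 13.9 and 11 scaled TPM at 1 day and 55.6, 18.9, 30.2, 31.3 and 34.8 in nulliparous libraries, and fell by 1.30 ± 0.28 (adjusted p = 0.0293). Cd34 fell by 1.78 ± 0.44 (adjusted p = 0.0432). Bgn (biglycan) was at 23.6, 31.3, 56.3, 24.4 and 33.4 and 268, 54.1, 69.4, 133 and 283, and fell by 1.99 ± 0.48 (adjusted p = 0.0397), and Fn1 (fibronectin) by 1.63 ± 0.38 (adjusted p = 0.0382). Adam17, the sheddase that releases amphiregulin, was at 21.4, 28, 36, 23.2 and 24.4 at 1 day and 94.8, 43.5, 53.6, 57.1 and 46.4 in nulliparous libraries, and fell by 1.09 ± 0.24 (adjusted p = 0.0299). Serpina3n, a protease inhibitor, fell by 1.02 ± 0.23 (adjusted p = 0.0333), with 21.6% of its 31-base words shared with other genes.

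Summed marker levels show how far the pellets differed. The 12 fibroblast markers summed to 387 to 585 scaled TPM at 1 day (median 544) and 405 to 2147 in nulliparous libraries (median 731). The 14 endothelial markers summed to 328 to 462 (median 409) and 413 to 1484 (median 583). The 9 nerve markers summed to 94.6 to 189 (median 145) and 159 to 934 (median 242), and the 7 red cell genes to 810 to 2760 (median 1770) and 2674 to 39653 (median 4096). For luminal epithelium, 15 markers summed to 60.5 to 3103 (median 2009) at 1 day and 138 to 1998 (median 399) in nulliparous libraries, with 1 fall (Prom1), no rise and a median fold change of 0.71. For basal and myoepithelial cells, 15 markers summed to 196 to 1249 (median 1105) and 248 to 1044 (median 598), with no call. The stromal sums moved with the matrix genes above, and their part in those fold changes was not tested.

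Immune markers varied widely within both groups. The 17 T and NK cell markers summed to 27.0 to 1536 scaled TPM at 1 day and 29.7 to 1742 in nulliparous libraries, with 1 rise, Gzma (granzyme A), by 1.15 ± 0.24 (adjusted p = 0.0262; -0.13 with TPM as deposited). The 14 macrophage markers summed to 215 to 664 and 178 to 722, with 1 rise, C1qc of the complement system, by 1.43 ± 0.29 (adjusted p = 0.0232; -0.438 as deposited). No member was called among 13 B and plasma cell, 5 neutrophil, 12 MHC class II, 13 adipocyte, 19 skeletal muscle and 2 keratinocyte markers tested. Skeletal muscle markers summed to 18.8 to 8605 at 1 day and 277 to 2074 in nulliparous libraries, highest in 1-day library 3. Of 8 pericyte markers, 1 fell (Notch3).

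**Figure D4:**
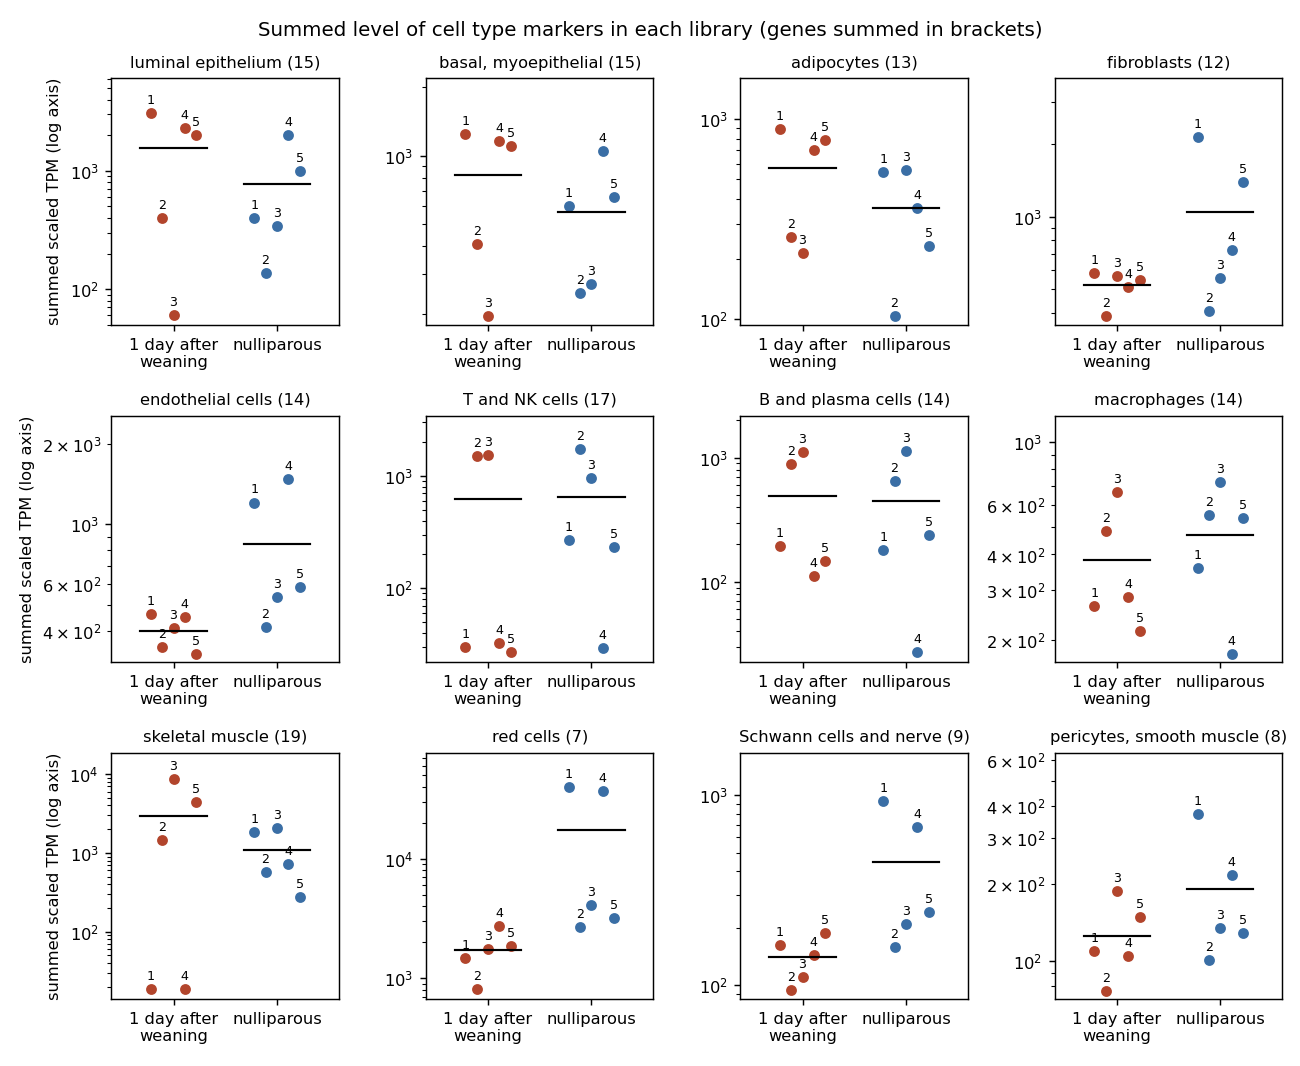
Summed scaled TPM on a log axis of the markers of 12 cell types (number of genes in brackets) in each library (points, numbered by replicate) of the 1-day group (left) and the nulliparous group (right), with the mean as a black bar. Red cell sums are 2760 at most at 1 day and reach 39653 in nulliparous libraries, luminal markers are lowest in 1-day library 3 at 60.5, and T and NK cell markers are high in libraries 2 and 3 of both groups.

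Ribosomal and respiratory chain genes gave the most rises of the pathway lists with all libraries included, though without 1-day library 3 the STAT3 list, with 13, and the whey proteins, with 12, had more than the ribosomal list, with 10, and the respiratory list, with 8. Of 40 cytosolic ribosomal proteins 11 rose and none fell (median 0.54, against a background of 2.54% higher), and of 33 nuclear oxidative phosphorylation subunits 7 rose and none fell (median 0.48). Rpl23 (chr11:97777527-97782437) was at 275, 283, 290.5, 326 and 319.9 scaled TPM at 1 day and 29.2, 47.8, 41.2, 38.9 and 43.3 in nulliparous libraries, and rose by 2.88 ± 0.17 (adjusted p = 2.62e-05), with 1-day library 3 like the other 4. Fau was at 246, 321, 282, 271 and 269.9 and 18.9, 49.4, 40, 27.8 and 65.4, and rose by 2.87 ± 0.30 (adjusted p = 9.21e-04). Rps23 rose by 1.92 ± 0.26 (adjusted p = 0.00506; -0.0413 with TPM as deposited). Between 24.3% and 36.3% of the 31-base words of these 3 genes are shared with other genes, so these values are uncertain. Ndufa2 and Ndufa1 of complex I rose by 2.93 ± 0.25 and 2.83 ± 0.45 (adjusted p = 3.07e-04 and 0.00965). Ndufa2 was at 67.6, 40.2, 46.6, 79.3 and 77.1 at 1 day and 4.91, 9.1, 6.71, 6.11 and 9.07 in nulliparous libraries. Cox5b of complex IV rose by 1.90 ± 0.21 (adjusted p = 0.00128; -0.0259 as deposited), and Mdh1, a malate dehydrogenase, by 1.26 ± 0.26 (adjusted p = 0.0267; -0.676 as deposited), the 1 call among 18 citrate cycle genes and carriers.

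Among mitochondrially encoded genes 10 of 13 had positive fold changes, with a median of 0.93, and none was called. The gene mt-Co1, among the 3 negative ones, was at 5645, 7068, 10472, 5806 and 9120 scaled TPM at 1 day and 67420, 2446, 3928, 35040 and 5450 in nulliparous libraries, a difference of -0.50 ± 1.11 (adjusted p = 0.803) that was 0.17 without nulliparous library 1. All mitochondrial transcripts held 2.54% ± 2.21 of TPM at 1 day and 12.9% ± 15.9 in nulliparous libraries (SD, n = 5 each), a difference that an exact two-sided permutation test did not call (p = 0.159, the same after adjustment over 4 such comparisons). Nulliparous library 1 alone was at 39.8%. Of 21 replication-dependent histones 4 rose and none fell, against a background of 2.54% higher (median 0.07, and -0.45 without 1-day library 3). Hist1h1e, Hist1h1c and Hist1h4h rose by 1.56 ± 0.31, 1.58 ± 0.36 and 1.62 ± 0.39 (adjusted p = 0.0233, 0.035 and 0.0397), and their differences were -0.312, -0.313 and -0.337 with TPM as deposited. Hist1h1e was at 39.9, 24.9, 37.2, 36.7 and 32 at 1 day and 4.83, 7.96, 15, 16.1 and 14.8 in nulliparous libraries.

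Transcript length moved with the fold changes of all genes. Among 14881 protein-coding genes in eighths of their longest annotated transcript, the median fold change was 0.11 in the shortest eighth (median 1110 bases) and -0.27 in the longest (median 7797 bases), falling in each step between. In the shortest eighth 9.24% of genes rose and 1.13% fell, and in the longest 0.806% rose and 4.09% fell. The rank correlation of length and fold change across these genes was -0.171, given as a description since genes are not independent. The ribosomal list had a median length of 1139.5 bases, the histones 704, the respiratory subunits 1697 and the collagens 5930, against 3366 for all. The part of length, and of the RNA integrity or fragment size that can go with it, in those lists was not tested.

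**Figure D5:**
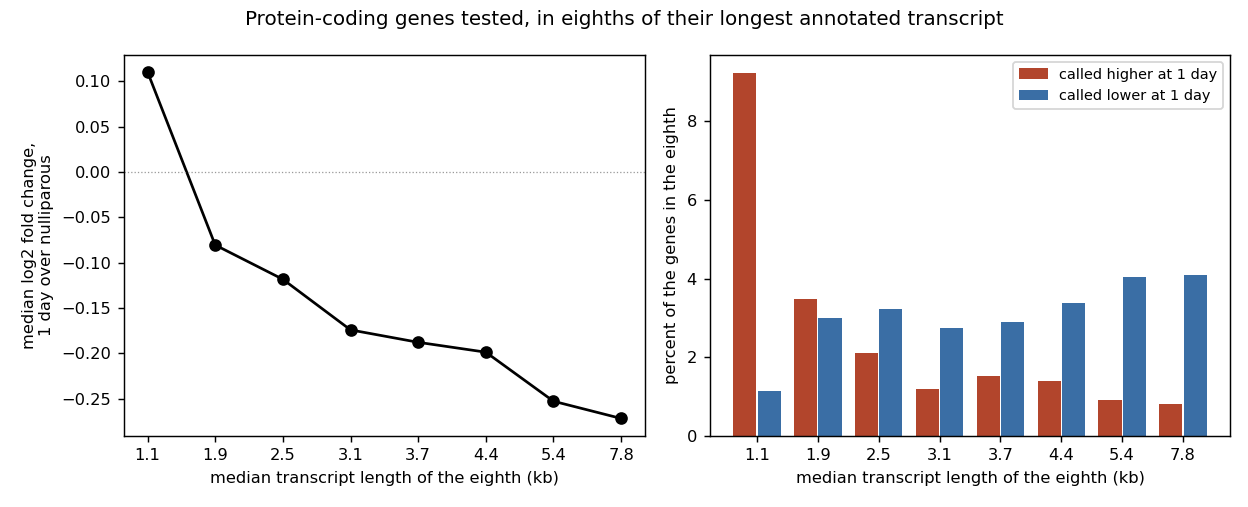
Protein-coding genes in eighths by their longest annotated transcript (x axis, median length of each eighth in kb), with the median log2 fold change of 1 day over nulliparous (left) and the percent of genes called higher and lower at 1 day (right). The median falls from 0.11 in the shortest to -0.27 in the longest eighth, and calls of higher genes from 9.24% to 0.806%.

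A few pseudogenes and 1 protein-coding gene with near copies held extreme values. Of 1350 processed pseudogenes tested, 31 rose and 58 fell (2.3% and 4.3%), near the shares of all genes (2.54% and 3.1%). Rpl17-ps3 was at 0, 0, 0, 1.03 and 0.47 scaled TPM at 1 day and 126, 187, 262, 286 and 392 in nulliparous libraries, and fell by 7.56 ± 0.33 (adjusted p = 3.60e-06). Before scaling, Rpl17-ps3 was below 1 TPM in every 1-day library. It met the filter through nulliparous libraries alone and so could be called only as lower. Rps6-ps4 and Mpc1-ps fell by 6.22 ± 0.93 and 4.18 ± 0.54 (adjusted p = 0.00777 and 0.00353). Tpt1-ps3 was at 463, 519.7, 386, 650.2 and 693 at 1 day and was listed at 0 in 4 nulliparous libraries and at 64.4 in library 2, and rose (adjusted p = 0.00443). Llph-ps2 and the protein-coding Sap18b rose by 4.19 ± 0.41 and 4.24 ± 0.50 (adjusted p = 7.36e-04 and 0.00201). Between 89.7% and 100% of the 31-base words of these 6 sequences occur in other genes as well, so how reads were divided among copies could change their values, and they are uncertain. Fcgbp, a mucin-like secreted protein, and Atp6v1b1, a proton pump subunit, were the other genes of large change: they fell by 3.85 ± 0.67 and 3.72 ± 0.64 (adjusted p = 0.0141 and 0.0137).

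The highest level at 1 day was that of the processed pseudogene Gm12895. Its whole sequence is printed because of that share of the 1-day libraries (chr4:122455210-122455435, plus strand, GRCm38, 226 bases), with capitals for the 224 bases covered by 31-base words that also occur in Gm12896, the only other gene of the annotation to share any.
Gm12895: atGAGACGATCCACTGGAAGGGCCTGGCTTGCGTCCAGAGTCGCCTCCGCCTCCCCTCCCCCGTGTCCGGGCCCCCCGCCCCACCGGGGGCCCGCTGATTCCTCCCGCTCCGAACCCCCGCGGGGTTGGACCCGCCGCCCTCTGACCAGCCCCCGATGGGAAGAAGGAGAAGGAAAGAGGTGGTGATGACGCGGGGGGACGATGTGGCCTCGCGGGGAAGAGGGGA
Of its 196 words, 194 were shared, so reads of this pair of pseudogenes could hardly be told apart. Gm12895 was at 1459700, 790250, 367260, 1637500 and 1259800 scaled TPM at 1 day and 12.2, 15834, 4866, 704 and 2234 in nulliparous libraries, and rose by 9.79 ± 2.23 (adjusted p = 0.0352). As a share of TPM it held 49.6% ± 6.53 at 1 day and 1.06% ± 1.45 in nulliparous libraries (SD, n = 5 each; exact two-sided permutation p = 0.00794, the smallest that 252 arrangements allow, adjusted p = 0.0159). Cabergoline-treated libraries at 1 day held 28.0% to 46.4%, and the 60-day libraries 0% to 10.5%, so the high share was seen at 1 day with and without treatment. Libraries at 1 day had 13591 ± 2210 genes at 1 TPM or more and nulliparous libraries 18084 ± 647.8 (SD, n = 5 each, exact two-sided permutation p = 0.00794, adjusted p = 0.0159). This count used TPM as deposited, where the shares held by Gm12895 and milk protein genes lower the TPM of all other genes. It is therefore no measure of how many genes were expressed. The 11 milk protein genes held 20.5% ± 15.6 of TPM at 1 day and 0.338% ± 0.228 in nulliparous libraries (SD, n = 5 each), a difference of 20.1 percentage points (exact two-sided permutation p = 0.0317, adjusted p = 0.0423).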

How the data were processed

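RNA-seq of mammary organoids was analysed in 10 of 25 libraries, grouped by their labels. The TPM values were made by the authors with Salmon from libraries of ribosomal RNA-depleted total RNA (GRCm38 per the submitters' processing notes) and deposited as 1 table of genes; neither the annotation release nor the way transcripts were summed to genes was stated. Read counts were not used here, so depth is unknown and no counting interval is given. TPM were divided by median-of-ratios factors, log2(value + 1) was taken, and genes at 1 TPM or more in at least 5 of the 10 libraries were tested with limma 3.58.1 (lmFit and eBayes with a mean trend, R 4.3.3) and Benjamini-Hochberg adjustment at 0.05. All adjusted p-values of genes come from that fit. Single values were compared by an exact two-sided permutation test. Fits with libraries left out kept the filter of 1 TPM in at least 5 libraries, which is stricter when fewer libraries remain. The code was tested on simulated data. Tables and figures were made with Python 3.11.15, pandas 2.3.3, numpy 2.4.6 and matplotlib 3.10.9.

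The comparison, the 46 gene lists and the rules were chosen with earlier results of these data known. Genes named were those the study discusses, the 8 largest non-overlapping called changes in each direction with a proper symbol, up to 3 called members of each list (or its most abundant member where none was called, given only where a result turns on it), all caseins and the 5 most abundant genes of each group (given likewise); others are marked as chosen after their values were seen. Alternatives covered the scaling, pseudocount, filter, variance model, libraries in the fit, replicate block and each library left out. Promoter and gene sequences came from RefSeq (GRCm38.p6) and the GRCm38 genome. The background of promoter windows left out chromosome 18. The other 15 libraries were not analysed here, apart from 1 alternative fit and the Gm12895 shares. The labels number the libraries of a group without naming animals, so p-values measure the spread between these samples, which may be in part technical. A few genes that the rule gives are not reported here.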

Additional observations from a re-analysis of the deposited data

Results flagged for a closer look

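In groups of 5 libraries, the highest or lowest value was marked where its gap to the nearest other value, over the whole range, passed Dixon's critical value of 0.71. This was the case in 22 of 312 groups checked, and at this critical value chance marks about 0.05 of groups. The values below are scaled TPM.

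Library 3 of the 1-day group accounted for most of them. It was far below the other 4 in Csn1s1 (22.4), Csn2 (18.9), Wap (43.7), Lalba (1.49), Wfdc18 (1.92), Ltf (7.10), Cel (0.544), Atp2c2 (0.0144), Saa1 (0.120), Lcn2 (2.69) and Fgfr2 (6.02), and above them in Fgfr1 (29.3). Its casein list averaged 3.57 on the log2(scaled TPM + 1) scale, and mitochondrial genes held 6.39% of its TPM.

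Library 2 of the 1-day group was high in Atp6v1b1 (2.80) and Rps6-ps4 (36.2), and library 4 of that group in neutrophil markers, which averaged 1.94 on the log2(scaled TPM + 1) scale. Among nulliparous libraries, library 2 was low in Ltf (7.65) and in fatty acid synthesis (3.96 on the same log2 scale) and high in Tpt1-ps3 (64.4), library 1 was high in Nucb2 (9.07) and library 4 in Tef (117.0).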

How the results depend on the processing

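The count of calls was the least stable result: 429 higher and 523 lower genes became 68 and 14001 with TPM as deposited, 132 and 7108 with TPM rescaled without Gm12895 and mitochondrial genes, 428 and 301 after quantile normalization, 284 and 233 without the filter on low values, 3827 and 6872 with library quality weights, and 769 and 957 with all 25 libraries in one fit. Leaving out each library in turn gave 126 to 949 higher and 60 to 1174 lower genes. Without both 1-day libraries rich in T cell transcripts the counts were 1781 and 2850, and without the 4 libraries richest in them, a choice made after seeing the data, 1350 and 1212. With the replicate number as a block they were 300 and 261. The numbers did not pair the samples: same-numbered libraries correlated in their deviations at 0.044, 0.673, 0.478, 0.511 and 0.207, and only libraries 2 and 4 correlated best with their own number. The milk protein share differed by 16.0 to 25.2 percentage points with each library left out, and the cause of these changes was not tested.

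Of 104 named genes, 104 kept direction and side of the threshold with robust variance, 101 with a pseudocount of 0.1 and 92 with a pseudocount of 5, against 63 with TPM as deposited. Many calls were lost with 1 library left out: 57, 53 and 54 of 103 genes kept both without 1-day library 1, 4 or 5, where 43, 47 and 45 missed the threshold, and 61 of 96 and 61 of 97 did without nulliparous library 4 or 5, while 81 of 104 did without 1-day library 3, where 21 more passed. Reversed with TPM as deposited were the log2 fold changes of Orai1 (-0.0365), Pmvk (-0.453), Stat5a (-1.84), Stat3 (-1.91), Bcl3 (-0.471), Ctsz (-0.719), Dnajb11 (-0.998), Esr1 (-1.83), Sox9 (-0.648), Met (-1.81), Trp53 (-1.78), Cox5b (-0.0259), Mdh1 (-0.676), Rps23 (-0.0413), Hist1h1e (-0.312), Hist1h1c (-0.313), Hist1h4h (-0.337), Gzma (-0.13), C1qc (-0.438) and Epcam (-0.00589). Rescaled TPM reversed Stat5a (-1.05), Stat3 (-1.09), Dnajb11 (-0.207), Esr1 (-1.09), Met (-1.09) and Trp53 (-1.02), quantile normalization Stat3 (-0.47), quality weights Trp53 (-0.872) and mt-Co1 (0.607), and a pseudocount of 5 Esr1 (-0.000352). Trp53 was at -0.588 without both T cell-rich 1-day libraries and -0.203 without the 4 richest. With each library left out, Stat5a ranged over -0.28 to 0.32, Stat3 over -0.0698 to 0.25, Esr1 over -0.15 to 0.22, Met over -0.31 to 0.39, Trp53 over -0.18 to 0.33 and mt-Co1 over -1.02 to 0.17.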
